A study of Mus musculus with 9 samples.

Results

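Histone genes were followed in mouse embryonic stem (ES) cells that had received a synthetic let-7c, a synthetic miR-294 or neither. The cells have no Dgcr8, the RNA-binding partner of Drosha in microRNA maturation, and so make few microRNAs of their own. The members are the probe sets annotated with exactly 1 gene symbol whose symbol begins with a histone prefix: H1f, H2ac, H2bc, H3c, H4c, H2az or H3f3, or the older Hist1 to Hist4 and H2af. The rule found 34 of 35557 probe sets, which stand for 33 of 19938 genes, because H2az1 has 2 probe sets. Of these genes, 25 were bright enough to be tested, among 13182 genes tested in all.

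All cells carried the genotype Dgcr8 -/- and were grown for 12 h without leukaemia inhibitory factor (LIF), the cytokine that holds mouse ES cells undifferentiated. One group received a let-7c miRIDIAN mimic (a synthetic double-stranded microRNA) at 50 nM with Dharmafect 1 reagent, another a miR-294 mimic in the same way, and the third was mock transfected. Each group had 3 biological replicates, and total RNA was hybridised to 9 one-colour arrays. No group received a control mimic, so an effect of transfected RNA as such cannot be told apart from that of either sequence in the comparisons with mock. Histone levels differ between phases of the cell cycle, and in bulk RNA fewer cells in S phase and less histone RNA per cell cannot be told apart.

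Histones are the proteins that DNA is wound around. Core histones H2A, H2B, H3 and H4 form the nucleosome, and linker histone H1 binds where DNA enters and leaves it. Most core and linker histones come from clustered, intronless genes that are transcribed in S phase, and their mRNAs end in a stem-loop instead of a poly(A) tail. Replacement variants such as H2A.Z and H3.3 are made throughout the cell cycle from polyadenylated mRNAs. The sources used here do not say how the RNA was primed for labelling. Let-7 microRNAs are abundant in differentiated cells, while miR-294 is one of the miR-290 family that ES cells make.

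The mature sequences of both microRNAs in RefSeq show that they share no seed, the stretch at bases 2 to 8 that pairs with targets. The seeds are in capitals.
mmu-let-7c-5p: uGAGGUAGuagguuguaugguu
mmu-miR-294-3p: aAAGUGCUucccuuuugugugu

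Of the 33 genes, 23 lie on chromosome 13, 5 on chromosome 3, 2 on chromosome 6 and 1 each on chromosomes 1, 11 and 15. RefSeq promoters (GRCm38.p6, 250 bases before to 50 after the gene's start) matched 29 of the 33. Known histone promoter motifs were searched on both strands by exact match. These were the octamer ATTTGCAT, which Oct1 binds in H2B promoters, the CCAAT box, the TATA box TATAAA and the H1 box AAACACA, the last added after the other 3. The sequences below are the 120 bases just before the gene's start, on the gene's strand, with matches in capitals. A CCAAT box on the opposite strand reads ATTGG. They are shown for 5 of the H2B genes, for the linker genes H1f1 and H1f2 and for H2az1. H1f1 and H1f2 were called in opposite directions with let-7c. H2bc1, the H2B gene with the largest fall with let-7c, is not among those shown.
H2bc14 (chr13:21721924-21722043, plus strand): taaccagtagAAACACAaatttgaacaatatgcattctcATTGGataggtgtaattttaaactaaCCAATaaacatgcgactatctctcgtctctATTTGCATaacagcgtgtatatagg
H2bc3 (chr13:23746614-23746733, plus strand): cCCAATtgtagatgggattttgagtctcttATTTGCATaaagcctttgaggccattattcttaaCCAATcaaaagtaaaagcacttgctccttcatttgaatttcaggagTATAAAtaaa
H2bc18 (chr3:96269580-96269699, plus strand): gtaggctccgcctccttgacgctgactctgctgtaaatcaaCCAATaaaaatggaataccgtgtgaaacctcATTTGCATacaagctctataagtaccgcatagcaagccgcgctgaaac
H2bc8 (chr13:23571280-23571399, plus strand): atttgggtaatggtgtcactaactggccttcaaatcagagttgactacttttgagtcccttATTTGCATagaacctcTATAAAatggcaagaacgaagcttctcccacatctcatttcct
H2bc9 (chr13:23543445-23543564, minus strand): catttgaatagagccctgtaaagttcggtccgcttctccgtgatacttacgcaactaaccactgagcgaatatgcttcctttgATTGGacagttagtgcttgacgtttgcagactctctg
H1f1 (chr13:23763548-23763667, plus strand): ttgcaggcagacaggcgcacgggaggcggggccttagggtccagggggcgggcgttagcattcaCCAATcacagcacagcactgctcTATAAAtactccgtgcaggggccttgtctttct
H1f2 (chr13:23738687-23738806, plus strand): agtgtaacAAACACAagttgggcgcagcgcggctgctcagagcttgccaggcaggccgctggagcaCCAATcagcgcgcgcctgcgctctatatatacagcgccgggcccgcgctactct
H2az1 (chr3:137864367-137864486, plus strand): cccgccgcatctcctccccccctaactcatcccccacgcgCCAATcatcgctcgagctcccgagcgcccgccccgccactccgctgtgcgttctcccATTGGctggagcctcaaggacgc

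The octamer was found in 5 of 7 H2B promoters and 3 of 4 H2A promoters, and in none of the 8 linker, 2 H3, 5 H4 and 3 replacement variant promoters. Among all 32851 RefSeq promoters, 1.74% held it. The CCAAT box was found in 24 of the 29 histone promoters against 37.4% of all promoters, and in 2 of the 5 H4 promoters. TATAAA was found in 15 of the 29 against 13.6%, and in no replacement variant promoter. The H1 box was found in 9 of the 29 against 7.18%. These were 4 of the 8 linker promoters (H1f2, H1f3, H1f5 and H1f6), 2 of the 4 H2A, 2 of the 7 H2B and 1 of the 3 replacement variant promoters, with none in the H3 and H4 promoters. H2ac1 with H2bc1, and H2ac8 with H2bc8, face away from each other with overlapping promoter windows. In each of these pairs the octamer of both genes is the same stretch of bases, so it is counted under both H2A and H2B. The same holds for the H1 box of H2ac1 and H2bc1 and for a TATAAA of H2ac8 and H2bc8. Other matches within an overlap can be counted under both classes too. A match is a description of letters and was not tested as a binding site.

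**Figure D1:**
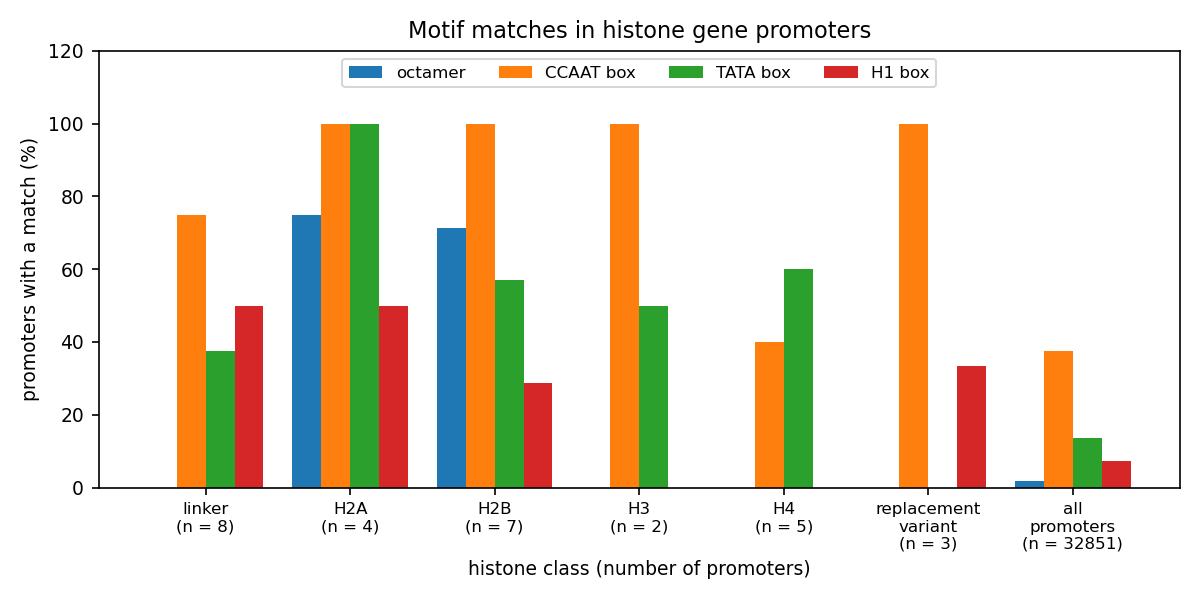
Bars show the percentage of promoters with at least 1 exact match to each motif, by histone class and for all RefSeq promoters, with the number of promoters under each class. The octamer bar stands at 71.4% for H2B and at 1.74% for all promoters, and 4 histone classes have no octamer bar.

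The deposited values are GCRMA values, taken as log2 from their range. Differences between groups are therefore log2 differences, with ± SE, and ± after a level is the SD of 3 replicates. A gene was called when its adjusted p (limma, Benjamini-Hochberg over all 13182 genes) lay under 0.05, with no minimum size. Array medians lay between 7.36 and 7.41 and arrays of a group correlated across genes at 0.995 or above. All 10 ES cell markers, among them Pou5f1, Sox2 and Nanog, passed the filter. Their summed log2 level ran from 118.0 to 118.1 in the let-7c arrays, from 120.4 to 121.0 with miR-294 and from 119.7 to 120.2 in mock. Levels are compared only within a probe set, since probe sets differ in how brightly they read. Core histone genes of a class are near-identical copies of each other, so a probe set annotated with 1 gene may also take up RNA of its relatives. A difference of a single core histone gene is uncertain to that extent, and counts of core genes may not count independent readings.

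With let-7c, 3 histone genes rose and 11 fell among the 25 tested, and 11 were not called. Across all tested genes 28.7% were called, 13.9% higher and 14.8% lower. In a fit that pairs arrays by replicate number (as a block), 4 histone genes were called higher and 12 lower. Of all genes, 2272 were then called higher and 2285 lower. The median difference of the 25 histone genes was -0.15, against 0.02 for all genes. All 18 core histone genes had a difference below 0, and 9 of them were called lower and 0 higher. The 3 that rose were the linker gene H1f2 and both H2A.Z genes. All let-7c arrays lay above all mock arrays in 3 of the 25, the same 3, and below them in 14. Of all genes, 22.0% lay above without overlap and 21.9% below.

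With miR-294, 4 histone genes rose and 1 fell, and 20 were not called, where 41.9% of all genes were called, 20.7% higher and 21.1% lower. H2bc18, H4c3, H2az1 and H2az2 rose and H1f1 fell. With the replicate number as a block 6 were called higher and 1 lower, H1f7 and H4c9 being the added rises. Of all genes, 3096 were then called lower, in place of 2786. The number called higher was at most 3305, the most under any alternative that kept all arrays, in place of 2735. The histone median was 0.04 against 0.02 for all genes. Compared directly, 16 histone genes were lower with let-7c than with miR-294 and 1, H1f2, was higher, where 50.8% of all genes were called, 24.5% lower and 26.2% higher. The median of that difference was -0.18, against -0.01 for all genes. Both comparisons with mock share the mock arrays, so each has its own values and no overlap is read from them.

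**Figure D2:**
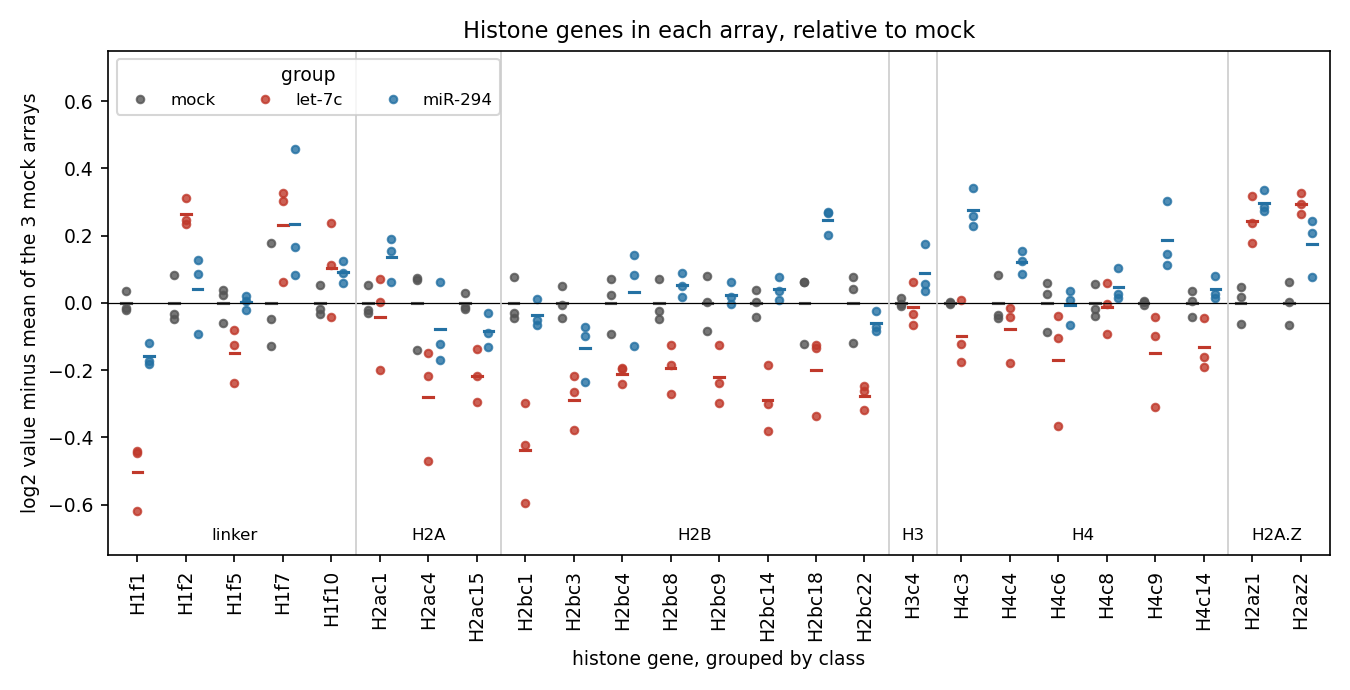
Each point is 1 array, as the log2 value minus the mean of the 3 mock arrays, for the 25 tested histone genes by class, and short bars mark group means. The let-7c points of every H2B gene lie below all of its mock points, while those of H2az1 and H2az2 lie above.

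Linker histones moved in both directions. H1f1, a somatic linker histone gene, read 12.56, 12.57 and 12.61 in mock, 11.96, 12.13 and 12.14 with let-7c and 12.40, 12.46 and 12.41 with miR-294. The 3 groups did not overlap, mock being highest and let-7c lowest. The fall with let-7c was -0.50 ± 0.05 (adjusted p = 7.85e-05), the largest among the 25, with a linear level 1.42 times as high in mock as with let-7c. The fall with miR-294 was -0.16 ± 0.05 (adjusted p = 0.0360), a call that ended under 7 of 19 alternatives (highest 0.107, without mock replicate 3). Between the mimics, H1f1 was also lower in the let-7c group (-0.35 ± 0.05, adjusted p = 0.000257).

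H1f2, another somatic linker gene, read 8.53, 8.66 and 8.55 in mock, 8.89, 8.82 and 8.83 with let-7c and 8.71, 8.67 and 8.49 with miR-294. Its let-7c arrays lay above all 6 others, and the miR-294 and mock arrays overlapped. The rise was 0.26 ± 0.06 against mock (adjusted p = 0.00955) and 0.22 ± 0.06 against miR-294 (adjusted p = 0.0112). The difference of miR-294 from mock was 0.04 (95% confidence interval -0.10 to 0.18).

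H1f5, the third somatic linker gene tested, stood at 12.59 ± 0.05 in mock and 12.44 ± 0.08 with let-7c. Its difference of -0.15 ± 0.05 passed by the narrowest margin (adjusted p = 0.04995) and did not pass under 10 of the alternatives. H1f5 was at 12.59 ± 0.02 with miR-294, and the direct difference was -0.15 ± 0.05 (adjusted p = 0.0287, highest 0.0996 without let-7c replicate 1). Neither H1f10, a replacement linker gene, nor H1f7, a testis linker gene, was called in any comparison. H1f7 had the widest spread of the 25 tested histone genes in mock (SD 0.16) and with miR-294 (SD 0.20). With the replicate number as a block it was called higher with let-7c (0.23, adjusted p = 0.0150) and with miR-294 (0.24, adjusted p = 0.00963).

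Among H2A genes, H2ac4 read 9.788, 9.998 and 10.004 in mock, 9.46, 9.71 and 9.78 with let-7c and 9.76, 9.81 and 9.99 with miR-294. The highest let-7c array lay just below the lowest mock array. The fall was -0.28 ± 0.09 (adjusted p = 0.0432), and the call ended without let-7c replicate 1 (0.148). H2ac15 fell from 10.49 ± 0.03 to 10.28 ± 0.08 (-0.22 ± 0.05, adjusted p = 0.00896) and was lower than with miR-294 (-0.13 ± 0.05, adjusted p = 0.0483). H2ac1 was not called against mock with let-7c (-0.04, 95% confidence interval -0.19 to 0.11) and was lower than with miR-294 (-0.18 ± 0.07, adjusted p = 0.0477). The direct calls of H2ac1 and H2ac15 ended without let-7c replicate 1 (0.168 and 0.156). With the replicate number as a block, the direct call of H2ac15 ended (0.0521). H2ac4, not called directly in the main fit (-0.20, adjusted p = 0.0916), was then called lower with let-7c (0.00704). No H2A gene was called with miR-294 against mock.

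H2B genes, whose products pair with H2A in the nucleosome, moved one way with let-7c. All but H2bc18 fell, 7 of 8, where 14.8% of all genes were called lower. With the replicate number as a block 8 of 8 were called lower, where 2285 of all 13182 genes were. In 8 of 8 the groups did not overlap, where 21.9% of all genes lay lower without overlap. These 8 probe sets may take up RNA of the same relatives, so they may not be 8 independent readings. How far they share signal was not tested. The median difference was -0.25. Against miR-294, 8 of 8 were lower with let-7c, where 24.5% of all genes were. That count became 6 without miR-294 replicate 1. With miR-294 against mock, 1 of 8 rose (12.5%) and 0 fell, where 20.7% and 21.1% of all genes did.

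H2bc1, a testis-enriched H2B gene, read 8.47, 8.46 and 8.58 in mock, 7.91, 8.20 and 8.08 with let-7c and 8.44, 8.45 and 8.51 with miR-294. Only the let-7c arrays stood apart, and they spread more widely than the others. The fall was -0.44 ± 0.07 (adjusted p = 0.00093, 1.36 times as high in mock on the linear scale), and the direct difference was -0.40 ± 0.07 (adjusted p = 0.000517). Its neighbour across the shared promoter, H2ac1, differed from mock by -0.04.

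H2bc14 read 11.76, 11.80 and 11.84 in mock, 11.42, 11.50 and 11.61 with let-7c and 11.83, 11.87 and 11.81 with miR-294. Mock and miR-294 overlapped, and let-7c lay below both. The fall was -0.29 ± 0.05 (adjusted p = 0.00258) and the direct difference -0.33 ± 0.05 (adjusted p = 0.000373).

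H2bc3 read 10.90, 10.80 and 10.84 in mock, 10.47, 10.58 and 10.63 with let-7c and 10.77, 10.61 and 10.75 with miR-294. It fell with let-7c (-0.29 ± 0.06, adjusted p = 0.00415). Its miR-294 arrays lay between, all under the mock arrays, without a call (-0.14 ± 0.06, adjusted p = 0.0865). One miR-294 array lay among the let-7c arrays, and the direct call (-0.15 ± 0.06, adjusted p = 0.04992) ended under several alternatives (highest 0.168, without let-7c replicate 1).

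H2bc18, which lies on chromosome 3 apart from the main cluster, read 9.58, 9.77 and 9.77 in mock, 9.37, 9.57 and 9.58 with let-7c and 9.91, 9.98 and 9.97 with miR-294. The groups were ordered let-7c, mock, miR-294 without overlap, although the highest let-7c and lowest mock arrays nearly touched. It rose with miR-294 (0.25 ± 0.07, adjusted p = 0.0141), a call that ended without mock replicate 1 (0.0584). With let-7c it just missed the threshold (-0.20 ± 0.07, adjusted p = 0.0502) and passed it with the replicate number as a block (0.00794). Its direct difference was the largest of the 25 genes in that comparison (-0.44 ± 0.07, adjusted p = 0.000226), 1.36 times as high with miR-294 on the linear scale.

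H2bc22 was dimmer, at 7.27, 7.23 and 7.07 in mock, 6.87, 6.94 and 6.93 with let-7c and 7.17, 7.12 and 7.11 with miR-294. All let-7c arrays lay lowest, and 8 of its 9 arrays were above the filter's level. It fell by 0.28 ± 0.06 against mock (adjusted p = 0.00361) and was lower than with miR-294 by -0.22 ± 0.06 (adjusted p = 0.00629).

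H2bc9 read 10.59, 10.51 and 10.67 in mock, 10.29, 10.35 and 10.46 with let-7c and 10.65, 10.58 and 10.61 with miR-294. H2bc8 read 7.40, 7.29 and 7.31 in mock, 7.06, 7.15 and 7.21 with let-7c and 7.42, 7.35 and 7.38 with miR-294. In both genes mock and miR-294 overlapped and let-7c lay below. H2bc9 fell by 0.22 ± 0.06 (adjusted p = 0.0149) and H2bc8 by 0.19 ± 0.05 (adjusted p = 0.0178). Their direct differences were -0.25 ± 0.06 (adjusted p = 0.00386) and -0.24 ± 0.05 (adjusted p = 0.00216). H2bc4 fell from 7.91 ± 0.08 to 7.70 ± 0.03 (-0.21 ± 0.07, adjusted p = 0.0420) and was lower than with miR-294 (-0.24 ± 0.07, adjusted p = 0.0122). Of the H2B genes that fell, H2bc9 and H2bc22 have no octamer in the promoter window and H2bc1, H2bc14, H2bc3 and H2bc8 have 1.

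In many of these genes a single let-7c array read lowest. Replicate 1 was the lowest let-7c array for 19 of the 25 tested histone genes and for 16 of the 18 core genes. Mock replicate 1 was the lowest mock array for 13 of the 25 and for 9 of the 18, and miR-294 replicate 1 the lowest of its group for 10 and 8. These counts were not made over all tested genes, so they do not show a trait particular to histone genes. Without let-7c replicate 1, 6 histone genes in place of 11 were called lower than mock. Among them were 4 of 8 H2B genes, whose median was then -0.22. The calls lost without it were those of H1f5, H2ac4, H2bc4, H2bc8 and H2bc9. Against miR-294, 12 in place of 16 were called lower without it, among them 7 of 8 H2B genes.

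H3c4, the single H3 gene tested, read 7.25 ± 0.01 in mock, 7.24 ± 0.07 with let-7c and 7.34 ± 0.08 with miR-294. It was called in no comparison. H3c7 and H3c15 were too dim to test.

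Of the H4 genes, 0 of 6 were called with let-7c against mock by limma, where 28.7% of all genes were. All 6 differences lay below 0 (median -0.11). At an unadjusted limma p under 0.05, 1 of the 6, H4c14, passed, where at least 28.7% of all genes did. With miR-294 1 of 6 was called, as higher (16.7%, against 20.7% of all genes), and 5 of 6 differences lay above 0 (median 0.08). In the direct comparison 4 of 6 were lower with let-7c (median -0.19), where 24.5% of all genes were.

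H4c3 read 9.39, 9.40 and 9.40 in mock, 9.22, 9.40 and 9.27 with let-7c and 9.66, 9.74 and 9.63 with miR-294. The miR-294 arrays lay above all others, and the highest let-7c array lay just above the mock arrays while the other 2 lay below. The rise with miR-294 was 0.28 ± 0.05 (adjusted p = 0.00186), and the direct difference was -0.37 ± 0.05 (adjusted p = 0.000142).

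H4c9 read 9.38, 9.39 and 9.39 in mock, 9.08, 9.29 and 9.35 with let-7c and 9.53, 9.69 and 9.50 with miR-294. The groups did not overlap, with mock between the mimics. Neither difference from mock passed the test (-0.15 ± 0.07, adjusted p = 0.142, with let-7c; 0.19 ± 0.07, adjusted p = 0.0569, with miR-294), while the mimics differed by -0.34 ± 0.07 (adjusted p = 0.00211). With the replicate number as a block, the difference of miR-294 from mock was called (0.0374). H4c4 (-0.20 ± 0.06, adjusted p = 0.0109) and H4c14 (-0.17 ± 0.05, adjusted p = 0.0133) were lower with let-7c in the direct comparison. H4c6 and H4c8 were not called in any comparison.

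Both H2A.Z genes rose with both mimics. H2A.Z is a replacement variant of H2A found at promoters and enhancers. H2az1 read 12.54, 12.66 and 12.62 in mock, 12.79, 12.85 and 12.92 with let-7c and 12.89, 12.94 and 12.88 with miR-294. All 6 mimic arrays lay above all mock arrays. The rises were 0.24 ± 0.05 with let-7c (adjusted p = 0.00447) and 0.30 ± 0.05 with miR-294 (adjusted p = 0.000733). Its other probe set, tested in a fit of every probe set, rose by 0.23 with let-7c and 0.32 with miR-294.

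H2az2 read 10.59, 10.66 and 10.53 in mock, 10.92, 10.86 and 10.89 with let-7c and 10.84, 10.80 and 10.67 with miR-294. Again no mimic array overlapped mock. The rise with let-7c was 0.30 ± 0.05 (adjusted p = 0.00238). With miR-294 it was 0.18 ± 0.05 (adjusted p = 0.0234), and that call ended without mock replicate 3 (0.0899). The mimics differed by -0.05 for H2az1 (95% confidence interval -0.17 to 0.06) and by 0.12 for H2az2 (95% confidence interval -0.002 to 0.24), neither called.

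**Figure D3:**
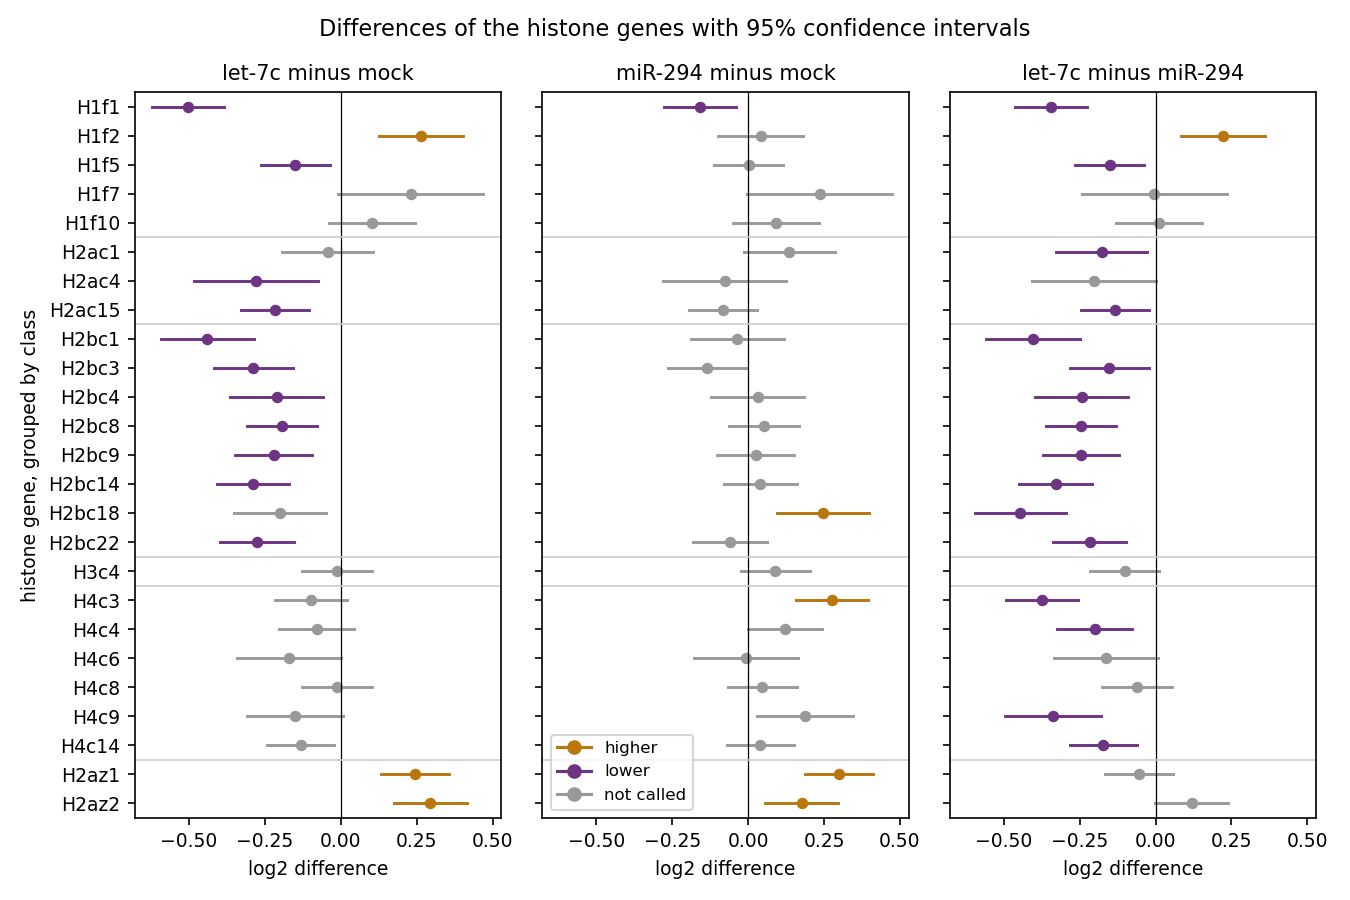
Log2 differences (points) with 95% confidence intervals (lines) for the 25 tested histone genes in the 3 comparisons, coloured by the call at an adjusted p under 0.05. H2B genes lie left of 0 in the left and right panels, and H2az1 and H2az2 lie right of 0 in both comparisons with mock.

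The 8 genes left out as dim were H1f3, H1f6, H1f8, H2ac8, H2bc21, H3c7, H3c15 and H3f3a, with means from 4.74 to 6.65, between the 9.29 and 35.84 percentile of all probe sets. The dimmest gene that passed was H4c8 at 7.05, above the filter's level in 9 arrays, and the brightest that did not was H1f3 at 6.65, above it in 0. H3f3a, which encodes H3.3, read 6.43, 6.33 and 6.28 in mock, 6.36, 6.31 and 6.32 with let-7c and 6.46, 6.45 and 6.37 with miR-294 in its own probe set.

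A further 39 protein-coding histone genes of these prefixes had no probe set of their own, and 37 of them were among the symbols of the 32 probe sets that name a histone with other genes. Those sets were added to the fit as a further alternative, chosen after seeing the data. Within a family they name nearly the same genes and are not independent readings. In the H2B family 2 of the 7 sets held identical values in all 9 arrays, and the H4 family's 5 sets held 4 distinct rows.

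The 7 H2B sets, each naming 14 or 15 symbols, fell with let-7c by -0.25 to -0.19 (adjusted p from 0.00148 to 0.00697). The brightest of them read 13.30, 13.23 and 13.30 in mock, 13.06, 13.08 and 13.08 with let-7c and 13.23, 13.16 and 13.20 with miR-294. All 7 were also lower with let-7c than with miR-294, by -0.17 to -0.11, and 0 were called with miR-294 against mock. In the main fit 28.7% of all genes were called with let-7c (14.8% lower), 41.9% with miR-294 and 50.8% between the mimics (24.5% lower with let-7c). The 10 H3 sets, each naming 12 symbols, had differences from -0.12 to -0.10 with let-7c, and 0 were called in any comparison (adjusted p from 0.0630 to 0.126 with let-7c).

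The 5 H4 sets were called neither with let-7c (-0.08 to -0.06) nor with miR-294 (0.07 to 0.10). In the direct comparison all 5 were lower with let-7c (-0.17 to -0.15, adjusted p from 0.00674 to 0.0152), where 24.5% of all genes were in the main fit. The 2 H2A sets, naming 19 or 20 symbols, differed by at most -0.07 from mock and were not called. These sets are bright, with means from 12.82 to 13.78 across the H2A, H2B, H3 and H4 families.

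The set naming H4c11 and H4c17 was higher with miR-294 (0.28, adjusted p = 0.0436) and lower with let-7c in the direct comparison (-0.40, adjusted p = 0.00636). The set naming H2bc6 and H1f4 fell with let-7c (-0.14, adjusted p = 0.0234). Of the 4 sets naming H3f3a with Gm12657, 2 rose with miR-294 (0.13 the larger), where 20.7% of all genes did in the main fit. With let-7c 0 of them were called against mock. These sets were bright (11.29 to 11.67) where the gene's own set was dim. The 2 sets naming H3f3b with Gm6485 were not called.

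**Figure D4:**
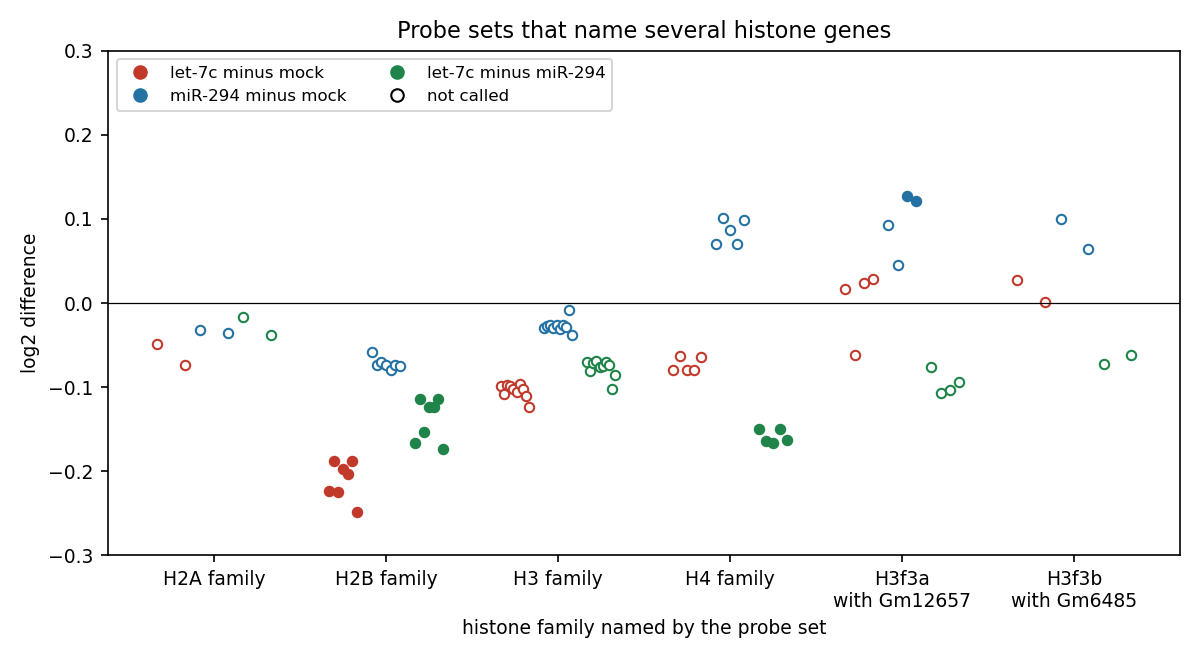
Each circle is 1 probe set that names several genes, placed by family, with its log2 difference in each of the 3 comparisons, filled where called. The H2B sets are filled for let-7c against mock and against miR-294, the H4 sets are filled for let-7c against miR-294 alone, and no H3 or H2A set is filled.

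Histone genes outside the prefixes included the largest differences of any histone here. H2ax, whose product is phosphorylated at DNA breaks, read 10.81, 10.75 and 10.69 in mock, 10.08, 10.17 and 10.15 with let-7c and 11.10, 11.17 and 11.12 with miR-294. The 3 groups were far apart and moved in opposite directions from mock. H2ax fell with let-7c (-0.62 ± 0.05, adjusted p = 1.12e-05) and rose with miR-294 (0.38 ± 0.05, adjusted p = 9.98e-05). The direct difference was -0.998 ± 0.05 (adjusted p = 5.72e-08).

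Of 19 such genes listed, 13 had a probe set of their own and 10 were tested. Macroh2a1, which encodes a large H2A variant of silent chromatin, fell with let-7c (-0.21 ± 0.05, adjusted p = 0.00696) and with miR-294 (-0.26 ± 0.05, adjusted p = 0.00109). Cenpa, the centromeric H3 variant, fell with let-7c (-0.17 ± 0.05, adjusted p = 0.0188, highest 0.0747 without mock replicate 2) and was lower than with miR-294 (-0.29 ± 0.05, adjusted p = 0.000303). With the replicate number as a block Cenpa was also called higher with miR-294 than in mock (0.12, adjusted p = 0.0408). H4f16, an H4 gene, fell with let-7c (-0.17 ± 0.05, adjusted p = 0.0404, highest 0.142 without mock replicate 2). H2aj, an H2A gene, rose with miR-294 (0.18 ± 0.05, adjusted p = 0.00794). In the direct comparison H2aj (-0.28 ± 0.05, adjusted p = 0.000354) and H4f16 (-0.19 ± 0.05, adjusted p = 0.0107) were lower with let-7c. Macroh2a2, H2bu2, H2aw, H2al2a and H2ab1 were not called in any comparison.

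The machinery that transcribes histone genes and cleaves their mRNAs was listed as 26 genes, of which 23 were tested. With let-7c 1 rose and 9 fell (39.1% lower, against 14.8% of all genes), with a median of -0.10. With miR-294 8 rose and 4 fell (34.8% and 17.4%, against 20.7% and 21.1%), with a median of 0.10. In the direct comparison 16 were lower with let-7c (69.6%, against 24.5%) and 1 was higher, with a median of -0.19. The 9 falls with let-7c became 5 without let-7c replicate 2 or mock replicate 1, and the single rise became 0 without any 1 let-7c or mock array or without miR-294 replicate 2. The 4 falls with miR-294 became 1 without miR-294 replicate 1 or mock replicate 2, and 2 without miR-294 replicate 2 or 3 or mock replicate 3. Zfp473, which encodes a zinc finger protein of the histone pre-mRNA cleavage complex, read 8.28, 8.10 and 8.03 in mock, 7.12, 6.90 and 6.94 with let-7c and 8.37, 8.26 and 8.32 with miR-294. It fell by 1.15 ± 0.07 with let-7c (adjusted p = 2.91e-06). Clp1, an RNA kinase of the pre-mRNA cleavage complex, read 10.18, 10.30 and 10.26 in mock, 9.32, 9.34 and 9.34 with let-7c and 10.32, 10.35 and 10.34 with miR-294, and fell by 0.92 ± 0.04 (adjusted p = 3.69e-07). In both genes the let-7c arrays lay far below the rest. With miR-294 neither was called against mock, but with the replicate number as a block Zfp473 was (0.18, adjusted p = 0.0112).

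Smaller falls with let-7c were those of the exonuclease gene Xrn2 (-0.27) and of Cpsf3, the endonuclease that cuts histone mRNA (-0.23). With miR-294 the CCAAT-binding subunit gene Nfyb rose by 0.71 ± 0.05 (adjusted p = 7.59e-07) and its partner Nfyc by 0.22. The Nfyc call ended with the mean of its probe sets (0.0684) and without miR-294 replicate 2 or mock replicate 1 (0.0567 and 0.0520). The Sm protein genes Snrpg and Snrpd3 rose with miR-294 by 0.37 and 0.33. The third NF-Y subunit gene, Nfya, fell with miR-294 (-0.19 ± 0.06, adjusted p = 0.0153), as did Npat, the coactivator of histone gene transcription (-0.20 ± 0.05, adjusted p = 0.00439). The Nfya call ended without miR-294 replicate 1 or 2 or mock replicate 2 (highest 0.0599). Slbp, which binds the stem-loop of histone mRNAs, was not called in any comparison (-0.09 with let-7c, 95% confidence interval -0.24 to 0.06). Nfya, Npat and Slbp were singled out after their values were seen.

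Histone chaperones and assembly factors were listed as 32 genes, 28 of them tested. With let-7c 1 rose and 11 fell (39.3% lower, against 14.8% of all genes). With miR-294 5 rose and 4 fell (17.9% and 14.3%), both shares under those of all genes (20.7% and 21.1%). In the direct comparison 3 were higher and 14 lower with let-7c (10.7% and 50.0%, against 26.2% and 24.5%). The 11 falls became 7 without mock replicate 2, and the 5 rises became 2 without miR-294 replicate 2 or 3 or mock replicate 1 or 3. With the replicate number as a block 2 rose and 14 fell with let-7c, the added calls being Asf1a (0.0230), Daxx (0.0470), Ep400 (0.0486) and Nap1l4 (0.0456). Nasp, the chaperone of soluble H3 and H4 and of H1, read 10.18, 10.34 and 10.25 in mock, 9.54, 9.87 and 9.74 with let-7c and 10.42, 10.54 and 10.53 with miR-294. It fell with let-7c (-0.54 ± 0.08, adjusted p = 0.000513) and rose with miR-294 (0.24 ± 0.08, adjusted p = 0.0262). The chaperone gene Set moved in the same directions (-0.51 and 0.37), Nap1l1 fell with let-7c (-0.32), and Anp32e, which removes H2A.Z from nucleosomes, fell with let-7c (-0.27 ± 0.05, adjusted p = 0.00172).

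With miR-294 the largest changes were falls of Ubn1, a subunit of the HIRA complex that deposits H3.3 (-0.72 ± 0.05, adjusted p = 1.52e-06), and of Asf1b, a chaperone of H3 and H4 (-0.59 ± 0.07, adjusted p = 8.54e-05). Rbbp7, a histone-binding subunit of several chromatin complexes, fell by 0.33. Ubn1 rose with let-7c (0.25 ± 0.05, adjusted p = 0.0038), and Asf1b did not differ from mock with let-7c beyond its error (-0.0005, 95% confidence interval -0.16 to 0.16).

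**Figure D5:**
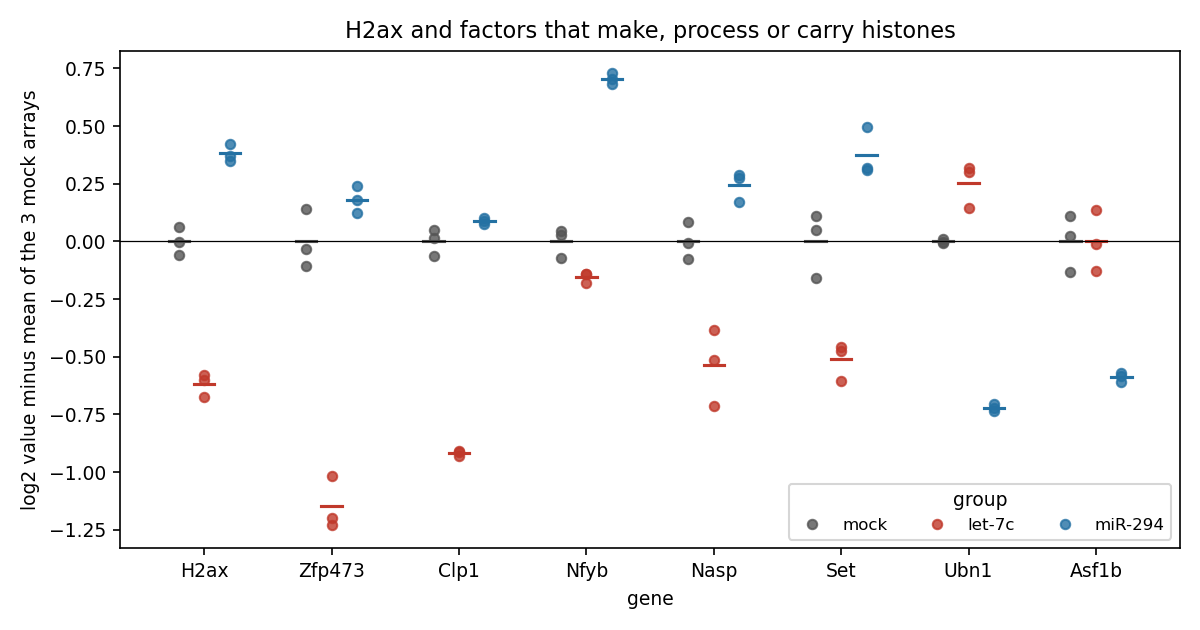
Each point is 1 array, as the log2 value minus the mean of the 3 mock arrays, for H2ax and 7 genes that act on histones, and short bars mark group means. Zfp473 and Clp1 lie lowest with let-7c, Nfyb lies highest and Ubn1 lowest with miR-294.

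Replication-dependent histone genes are expressed in S phase, so 44 S phase DNA replication genes were described beside them, 43 of which were tested. With let-7c 0 rose and 21 fell (48.8% lower, against 14.8% of all genes; median -0.12), and 12 fell without mock replicate 2. With miR-294 15 rose (34.9%, against 20.7%) and 6 fell (13.95%, against 21.1%; median 0.04). Directly, 4 were higher and 27 lower with let-7c (9.3% and 62.8%, against 26.2% and 24.5%; median -0.19). With let-7c the largest falls were those of Cdc6 (-0.57), Cdc25a (-0.55), Rrm2 (-0.53) and Gins1 (-0.49). With miR-294 Orc1 (0.63) and Mcm10 (0.41) rose, and Rfc3 (-0.45) and Rrm1 (-0.37) fell. Directly, Ccne1, the cyclin of S phase entry, was lower with let-7c by 0.68 ± 0.05 (adjusted p = 1.3e-06). The part of these S phase genes in the histone differences was not tested.

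Of the 10 ES cell marker genes, 0 were higher and 6 lower with let-7c, where 14.8% of all genes were lower. With miR-294 4 were higher and 1 lower, where 20.7% and 21.1% of all genes were, the single fall being lost without miR-294 replicate 3 or mock replicate 1 or 2. In the direct comparison 0 were higher and 7 lower, where 24.5% of all genes were lower. Of the markers of other cell types, 5 of 9 feeder fibroblast, 6 of 9 primitive endoderm, 6 of 8 trophoblast and 0 of 3 measured 2-cell-like cell genes passed the filter. The summed log2 level of the feeder genes ran from 61.5 to 63.2 with let-7c, from 61.6 to 62.3 with miR-294 and from 60.7 to 61.5 in mock. That of the primitive endoderm genes ran from 66.2 to 67.2, from 66.5 to 67.0 and from 65.3 to 66.1 in the same order. The trophoblast genes ran from 63.9 to 65.5, from 62.6 to 63.8 and from 62.9 to 64.2, and the 2-cell-like genes from 16.48 to 17.10, from 16.75 to 17.03 and from 16.51 to 16.87. Of the 6 trophoblast genes tested, 3 were higher with let-7c in the direct comparison (50.0%, against 26.2% of all genes), the keratin genes Krt8 (0.71) and Krt18 (0.59) and the transcription factor gene Gata3 (0.40). The call of Krt18 ended without let-7c replicate 1 (adjusted p = 0.0762) and without miR-294 replicate 2 or 3 (0.0765 and 0.0549). Against mock Gata3 rose with let-7c (0.48) and Tfap2c fell (-0.31). With the replicate number as a block Krt8 and Krt18 were called higher with let-7c than in mock (0.41 and 0.35) and lower with miR-294 (-0.30 and -0.24). Of the 6 primitive endoderm genes, Gata4 rose with let-7c (0.31) and Sox7 with miR-294 (0.36), and both differed between the mimics (0.40 and -0.31). Of the 5 feeder genes, Col3a1 rose with miR-294 (0.16) and Loxl1 was higher with let-7c in the direct comparison (0.22). Both feeder calls ended when single arrays were left out (highest adjusted p 0.138 for Col3a1 and 0.110 for Loxl1, each without miR-294 replicate 3). The part of these marker genes in the histone differences was not tested.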

How the data were processed

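RNA of 9 samples in 3 groups of 3 biological replicates was measured on arrays. The authors deposited 1 table of log2 values, taken as log2 from their range (2.54 to 15.0) because no file header states the scale. GCRMA, which corrects background, normalizes arrays and summarises probe sets, made them per the submitters' processing notes; the sources used here give no version or settings. Values were used as deposited. Of the probe sets, 21789 carry 1 symbol, 1621 several and 12147 none.

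Each gene was represented by its probe set with the highest mean, and tested if at least 3 arrays exceeded their own 40th percentile. R 4.3.3 and limma 3.58.1 (lmFit, eBayes, 9 arrays, 6 residual degrees of freedom, two-sided) gave Benjamini-Hochberg adjusted p-values over 13182 genes, and the fit was tested on simulated data. The number of arrays limits the precision. Same-numbered replicates deviated together in let-7c and mock (r 0.133 to 0.418) and in miR-294 and mock (r 0.272 to 0.363). For different numbers r was -0.361 to 0.149 in let-7c and mock and -0.218 to -0.048 in miR-294 and mock. Every same-number pair with mock was above 0.1, so these numbers were read as pairing. That reading is less sure for let-7c replicate 3, which correlated more with mock replicate 2 (0.149) than with mock replicate 3 (0.133). The main values and counts are nevertheless those of the fit without this pairing. Blocked values are given where they change the call of a histone gene or a named gene or move a list's count. Between let-7c and miR-294 r was 0.0285 to 0.248 for the same number and -0.257 to 0.071 for different numbers. With 1 of 3 same-number pairs under 0.1, these correlations alone did not settle pairing there. Since both groups were read as paired with mock, the same numbers would pair them too. Blocked call changes of that comparison are collected in the closing section. At most 0.0309% of values were identical between 2 arrays.

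Members, lists, markers and alternatives were chosen with earlier results of these data known. Every called histone gene is named, with all arrays for the 14 with the largest differences and for fixed linker and variant genes where tested; up to 4 called genes are named per list and comparison. H1f0 and H3f3b have no probe set of their own here. Lists are described by counts and medians without a test.

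Alternatives were the replicate block, no filter, a stricter filter (mean above the 60th percentile), quantile normalization, centring on the 75th percentile, an intensity trend with a robust prior, 2 groups only, every probe set, the mean of a gene's probe sets, added probe sets of several symbols, and leaving out each array.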

Additional observations from a re-analysis of the deposited data

How the results depend on the processing

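In the 678 recalculations of the 36 differences of called histone genes, 600 kept their call, 78 lost it and 0 reversed. The 120 recalculated counts over all genes all stayed within 1.5 times, and the largest shift of the all-gene median was 0.0266. With every probe set that names a histone among several symbols (added after seeing the data), 19 were called lower with let-7c than mock in place of 11, 7 higher with miR-294 than mock in place of 4, and 30 lower with let-7c than miR-294 in place of 16, since more features enter. The single fall with miR-294 became 0 without a filter, 0 with 75th percentile centring and 2 with an intensity trend and robust prior. The single gene higher with let-7c than miR-294 became 2 with quantile normalization and 2 with an intensity trend and robust prior. Leaving out 1 array gave 6 (without let-7c replicate 1) to 10 lower with let-7c than mock, 2 (without mock replicate 1) to 6 higher and 0 to 1 lower with miR-294, and 12 (without let-7c replicate 1) to 18 lower and 1 higher with let-7c than miR-294. Beyond the construction of the added probe sets and the smaller number of arrays, the cause was not tested.

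Calls lost under at least 1 alternative were those of H1f5, H2ac4, H2bc4, H2bc8 and H2bc9 for let-7c against mock, of H1f1, H2az2 and H2bc18 for miR-294 against mock, and of H1f5, H2ac1, H2ac15, H2bc3, H2bc4 and H4c14 between the mimics. With the replicate number as a block, 4 histone genes were higher and 12 lower with let-7c than mock, 6 higher and 1 lower with miR-294, and 1 higher and 16 lower with let-7c than miR-294. Of all genes, the block called 2272 higher and 2285 lower with let-7c than mock and 3096 lower with miR-294 than mock. It called 3731 higher with let-7c than miR-294. Between the mimics, where the correlations alone did not settle pairing, the block ended the call of H2ac15 (0.0521). It made calls of H2ac4 (0.00704), H2bu2 (0.0138), Prim1 (0.0361) and Tfap2c (0.0333). Against mock the block also made calls with miR-294 of Snrpe (0.0369), Cabin1 (0.0484), Atrx (0.0393), Col1a1 (0.0210), Col1a2 (0.0472), Lama1 (0.00196), Tfap2c (0.0206) and Hand1 (0.0212) and with let-7c of Lama1 (0.0183); among the histone genes and lists it changed no other call than these and those given in the report. Signal near the filter's level limits H2bc22 and H4c8 (44.34 and 43.77 percentile of all probe sets). H1f7, H3c4 and H2bc8 lay little higher (46.27, 48.11 and 48.36 percentile) and are limited in the same way.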
